A study of Mus musculus with 6 samples.

Results

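The 10 genes described here encode enzymes that modify heparan sulfate and core proteins that carry it. They were chosen by name, with earlier results of these data known, and are 10 of the 32285 genes counted in nuclei of the prelimbic area (PL) of the mouse medial prefrontal cortex: the 3-O-sulfotransferases Hs3st1, Hs3st2, Hs3st4 and Hs3st5, the 6-O-sulfotransferases Hs6st2 and Hs6st3, the N-deacetylase/N-sulfotransferases Ndst3 and Ndst4, and the glypicans Gpc5 and Gpc6. The samples were 6 libraries of single-nucleus RNA sequencing (snRNA-Seq) from male C57BL/6 mice, each made from the pooled PL of 3 mice, so that each condition had 1 library per dataset. Run mice were raised by dams that had a running wheel from postnatal day 2 to weaning at day 21, and Sed mice by sedentary dams in standard cages. From weaning the males were group housed (GH) or socially isolated (SI). Dataset 1 held RunGH and SedGH mice of a cohort that had been through tube tests of dominance and had been picked by rank, and dataset 2 held RunGH, SedGH, RunSI and SedSI mice of a cohort with no behavioural testing. The sample labels give day 21 as the age, while the study's methods describe nuclei taken from adult mice. No group carried a transgene or a deletion. The paper describes the profiled Run and Sed males of dataset 1 as top and bottom in rank within their group. Where Run was top and Sed bottom, rank cannot be told apart from maternal environment in dataset 1. Cohort, earlier testing, selection by rank and library preparation all differed between the datasets and cannot be told apart.

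Heparan sulfate is a sulfated sugar chain on the cell surface and in the extracellular matrix, built on core proteins such as glypicans, which a lipid anchor holds in the membrane, and syndecans, which span it. Enzymes of the Ndst family act first on the growing chain, replacing acetyl with sulfate groups, and epimerization, 2-O-, 6-O- and 3-O-sulfation follow. The resulting patterns of sulfate decide which growth factors, morphogens and adhesion proteins bind the chain. In brain, glypicans and heparan sulfate are known to take part in synapse formation and in the guidance of axons. RNA levels, as measured here, do not give enzyme activity or chain structure.

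After limits on genes and on mitochondrial UMIs per barcode and a minimum of UMIs per library, 4998 to 9936 nuclei per library were kept. Median UMIs per nucleus were 5585 and 6250 in the RunGH and SedGH libraries of dataset 1, and 3396.5, 1637, 4032.5 and 3599.5 in RunGH, SedGH, RunSI and SedSI of dataset 2. Background droplets were larger in dataset 1, with medians of 1065 and 1176 UMIs, than in dataset 2, with 82 to 302. Any pair of libraries shared at most 22 barcodes. Nuclei were clustered in each dataset without the 10 genes and without 39 other heparan sulfate genes, and clusters were named from marker lists, so a class name stands for nuclei like that class. All 7 markers of the layer 6 corticothalamic list were detected in the class of that name and summed to 3084 to 3420 CPM (counts scaled to a common total per class and library) against 178 to 275 CPM in layer 2/3. The 8 astrocyte markers summed to 2661 to 3757 CPM in the astrocyte class, and the 6 PV markers to 1418 to 1714 CPM in PV against 322 to 506 CPM in SST nuclei. Sums of UMIs per class and library were compared, and 14 named classes had at least 20 nuclei in every library.

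All 10 genes are long. On GRCm38 they span from 110 kb (Hs3st2) to 1433 kb (Gpc5), and all 10 are over 100 kb, as are 11.4% of 21513 protein-coding genes, whose median is 17.4 kb. Reads in introns were counted, so long genes give many UMIs in nuclei. For that reason levels are compared here between classes and libraries for 1 gene at a time, and not between genes. Hs3st4 lies at chr7:123982869-124398989, Gpc5 at chr14:115092215-116525179 and Ndst3 at chr3:123526166-123690853 on the reverse strand. Gpc5, Gpc6 and Hs6st3 all lie on chromosome 14, and Hs3st2 and Hs3st4 both on chromosome 7. No protein-coding gene overlaps any of the 10, but noncoding genes on the other strand overlap 6 of them. The strand setting of the counts is not given in the sources used here. Whether reads of such a pair are told apart was not tested.

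Promoters of 8 of the 10 genes were found in RefSeq (GRCm38.p6), with 10 start sites in all, and none was matched for Ndst4 or Gpc6. The 250 bases before the start of Hs3st4 held 43 CpG dinucleotides (CG, which reads the same on both strands), and 0.712% of 32851 promoters held as many. Hs6st3 had 36, the starts of Hs6st2 26 and 7, Hs3st1 19, Hs3st2 17, Gpc5 12 and Hs3st5 8, against a median of 6 over all promoters. The 2 starts of Ndst3 had 3 and 1. Both lie inside the span of the gene, whose 5′ end is at chr3:123690853, and the bases before that end were not examined. The starts of Hs3st1, Hs3st2 and Hs6st2 lie inside the spans of their genes as well. The letters TATAAA were in the last 50 bases of none of the 10, and in 2.63% of all promoters. Of the 3 sequences printed here, Hs3st4 and Ndst3 mark the highest and lowest number of CpG dinucleotides among the starts found. Gpc5 belongs to the glypican with the widest contrast between glia and neurons. Each is written 5′ to 3′ on the strand of its gene, with CpG dinucleotides in capitals. They lie at chr7:123982578-123982827, chr14:115091965-115092214 and chr3:123672478-123672727.
Hs3st4: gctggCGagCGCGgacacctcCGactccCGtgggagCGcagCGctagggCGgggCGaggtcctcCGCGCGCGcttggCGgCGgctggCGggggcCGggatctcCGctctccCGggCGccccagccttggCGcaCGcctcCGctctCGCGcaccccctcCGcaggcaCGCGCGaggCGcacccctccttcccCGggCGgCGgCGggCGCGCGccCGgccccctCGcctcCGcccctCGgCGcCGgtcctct
Gpc5: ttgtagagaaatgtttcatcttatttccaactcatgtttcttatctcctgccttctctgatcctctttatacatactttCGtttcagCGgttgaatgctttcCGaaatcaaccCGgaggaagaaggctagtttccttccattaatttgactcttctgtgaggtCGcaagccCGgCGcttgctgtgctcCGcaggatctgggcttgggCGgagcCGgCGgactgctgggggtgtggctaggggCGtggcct
Ndst3: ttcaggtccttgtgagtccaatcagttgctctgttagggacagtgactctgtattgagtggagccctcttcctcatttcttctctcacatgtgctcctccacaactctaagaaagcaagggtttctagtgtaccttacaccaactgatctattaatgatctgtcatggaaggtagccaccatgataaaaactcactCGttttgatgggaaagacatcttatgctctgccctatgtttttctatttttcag

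Hs3st4, a 3-O-sulfotransferase, was highest in layer 6 corticothalamic and layer 5 near-projecting neurons. Its summed level in layer 6 corticothalamic nuclei was 3340 and 3549 CPM in RunGH and SedGH of dataset 1, and 3173, 3166, 2919 and 3175 CPM in RunGH, SedGH, RunSI and SedSI of dataset 2. In layer 5 near-projecting nuclei it was 1768 ± 115 CPM (SD, n = 6), with a highest value of 1935 CPM, so the 6 layer 6 values and the 6 near-projecting values did not overlap. Every other class lay below both, and the other deep projection classes did not share the high level, with means of 210 CPM in layer 5 intratelencephalic, 176 CPM in layer 5 extratelencephalic and 57.9 CPM in deep pyramidal nuclei. Layer 2/3 nuclei, at the bottom of the order, had from 14.6 to 131 CPM. After nuclei were thinned to 1000 UMIs, 91.3 to 93.7% of layer 6 corticothalamic nuclei and 73.9 to 80.4% of near-projecting nuclei had an Hs3st4 UMI, against 1.46 to 11.6% of layer 2/3 nuclei. Nuclei under 1000 UMIs were left out, all of them in SedGH of dataset 2 (882 of 5826), where thinned shares rest on 491 of 580 layer 6 corticothalamic, 1147 of 1386 layer 2/3, 67 of 85 microglia, 21 of 42 VIP and 39 of 100 astrocyte nuclei and on 4 of 17 oligodendrocyte precursors. The unthinned shares in layer 6 were 95.9 to 100%.

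Nuclei that should lack the gene give the background of these values. Microglia, which should lack Hs3st4, had a UMI in 12.3 to 27.3% of thinned nuclei (median depth 1667 to 3847 UMIs before thinning) and a mean of 525 CPM. Barcodes under 100 UMIs, which hold mainly free RNA, had 316 and 713 CPM of Hs3st4 in RunGH and SedGH of dataset 1 and 141 to 387 CPM in dataset 2. Shares in layer 2/3, PV and astrocyte nuclei lay within or below the range of microglia and are read as background. The same reading was made for each gene, and it does not test how much of a level is background. Microglia of SedGH of dataset 2 had 647 CPM of Gpc6, against 192 CPM in barcodes under 100 UMIs. Among the named classes, shares in all 6 libraries lay above the whole range of microglia for Hs3st4 in layer 6 corticothalamic and near-projecting nuclei, for Hs3st2 in layer 6 corticothalamic, layer 5 intratelencephalic, layer 5 extratelencephalic and deep pyramidal nuclei, for Hs3st1 in PV nuclei and oligodendrocytes, for Hs6st2 in layer 6 corticothalamic, Hs6st3 in near-projecting and Ndst4 in NPY nuclei, for Ndst3 in layer 5 extratelencephalic, layer 5 intratelencephalic and PV nuclei, and for Gpc5 in astrocytes. Hs3st5 and Gpc6 had no such class. The range of microglia reached 69.6% for Gpc6, and SedGH of dataset 1 had only 23 microglia. Set against microglia of the same library, Gpc6 in mid-layer nuclei and astrocytes lay above in 6 of 6. So did Hs3st5 in layer 6 corticothalamic and mid-layer nuclei. The lowest Ndst4 share of NPY nuclei was 2.38%, against up to 1.49% of microglia. Beside the comparisons below, a share is called above microglia where it was higher than in microglia of the same library.

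Hs3st2, another enzyme of the same step, was also highest in layer 6 corticothalamic nuclei, at 505 ± 144 CPM (SD, n = 6). Layer 5 intratelencephalic nuclei followed with 303 ± 120 CPM, lower in each of the 6 libraries although the ranges overlapped, and PV nuclei were lowest with 21.2 ± 18.2 CPM. Hs3st5 took another order. NPY nuclei came first with 241 ± 37.4 CPM, above layer 6 corticothalamic nuclei (192 ± 37.9 CPM) in 5 of 6 libraries, and layer 2/3 nuclei had 14.2 ± 8.32 CPM, with no overlap with the next class. Hs3st1, whose product makes the antithrombin-binding site of heparin, was low throughout. Oligodendrocytes had 52.6 ± 27.2 CPM and PV nuclei 43.2 ± 11.4 CPM, and oligodendrocytes were above PV nuclei in 3 of 6 libraries. In PV nuclei Hs3st1 was 46.8 and 24.0 CPM in RunGH and SedGH of dataset 1 and 58.5, 44.6, 38.8 and 46.4 CPM in the 4 libraries of dataset 2. These rest on 13 to 77 UMIs per library, and 3.01 to 5.50% of thinned PV nuclei had one, against 0 to 1.85% of microglia.

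The 6-O-sulfotransferases differed in where they were high. Hs6st2 peaked in layer 6 corticothalamic nuclei at 162 ± 15.3 CPM (SD, n = 6), above every other class with no overlap with VIP nuclei (112 ± 25.6 CPM), and was lowest in PV nuclei with 29.4 ± 14.7 CPM. Hs6st3 was lowest in layer 6 corticothalamic nuclei, with 98.1 ± 48.8 CPM. Its highest classes were layer 5 near-projecting (1611 ± 169 CPM), mid-layer (1271 ± 518 CPM) and VIP nuclei (1255 ± 356 CPM), whose order was not the same in all libraries. Mid-layer nuclei are not made up alike in the datasets, since a cluster of dataset 1 with Rorb, Kcnh5 and Ankfn1 among its leading genes (710 nuclei in RunGH and 302 in SedGH) got no name, while those genes lead the mid-layer cluster of dataset 2. Hs6st3 was 2191 and 1580 CPM in mid-layer nuclei of RunGH and SedGH of dataset 1, 1826 and 1278 CPM with that cluster added, and 1061, 874, 930 and 989 CPM in RunGH, SedGH, RunSI and SedSI of dataset 2.

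Ndst3 and Ndst4, which start the sulfation of the chain, marked different cells. Ndst3 was highest in layer 5 extratelencephalic neurons, the output neurons to the brainstem and spinal cord, at 611 ± 48.9 CPM (SD, n = 6), with no overlap with layer 5 intratelencephalic nuclei (418 ± 60.9 CPM). PV nuclei followed with 399 CPM on average. There the RunGH and SedGH libraries of dataset 1 had 434 and 410 CPM, and those of dataset 2 391, 422, 335 and 399 CPM in RunGH, SedGH, RunSI and SedSI. VIP nuclei were lowest with 42.8 ± 29.8 CPM. Ndst4 was a low gene, highest by class in NPY interneurons and high in a small interneuron cluster. NPY nuclei had 40.9 CPM in both libraries of dataset 1 and 73.2, 153, 115 and 57.7 CPM in dataset 2, from 9 to 36 UMIs per library. SST nuclei had 29.8 ± 30.1 CPM, from 0 UMIs in SedGH of dataset 1, where a count of 0 allows up to 3 UMIs, to 71.6 CPM in SedGH of dataset 2. These class values follow 1 cluster, led by Nos1 and Tacr1 (the neuronal nitric oxide synthase and the substance P receptor) with Ndst4 itself among its leading genes, although Ndst4 was kept out of the clustering. The cluster was named SST in dataset 2 and got no name in dataset 1, so SST nuclei include it in 1 dataset only. The reverse holds for a cluster with Pard3b, Gxylt2, Spon1 and Trhde among its leading genes, named SST in dataset 1 (97 nuclei) and without a name in dataset 2 (213 nuclei), so values of SST nuclei by dataset set differently composed classes side by side. In dataset 2 the cluster led by Nos1 held 34 of 35 SST Ndst4 UMIs in RunGH (11 nuclei), 16 of 16 in SedGH (9 nuclei), 42 of 46 in RunSI (17 nuclei) and 2 of 2 in SedSI (3 nuclei). The Ndst4 level of the cluster led by Nos1 was 910, 925, 705 and 161 CPM, and the cluster led by Nos1 in dataset 1 had 541 CPM in RunGH (10 nuclei) and 1051 CPM in SedGH (4 nuclei). SST nuclei outside the cluster led by Nos1 had 0 to 6 Ndst4 UMIs per library.

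Gpc5 was a glypican of astrocytes. All 6 libraries were close there, with 7123 and 7169 CPM in RunGH and SedGH of dataset 1 and 6136, 6117, 6183 and 6443 CPM in RunGH, SedGH, RunSI and SedSI of dataset 2. The highest value in any other of the 14 classes was 1387 CPM, in the 23 microglia of SedGH in dataset 1, and 91.0 to 99.5% of thinned astrocytes had a UMI against 15.7 to 43.5% of microglia. Oligodendrocyte precursors, which had fewer than 20 nuclei in SedGH of dataset 2 (17) and so stand outside the 14 classes, had 2286 to 4753 CPM. Among neurons layer 2/3 nuclei were highest with 477 ± 81.7 CPM (SD, n = 6), below the mean of microglia (588 CPM). A Gpc5 UMI was in 26.6 to 40.3% of thinned layer 2/3 nuclei, within the range of microglia, and the astrocyte gene Slc1a3 was among the 10 leading genes of a layer 2/3 cluster of dataset 2. Their part in the level was not tested. Gpc6 was spread more evenly. Mid-layer nuclei had 1682 ± 371 CPM, layer 5 intratelencephalic nuclei 1312 ± 202 CPM and astrocytes 1144 ± 171 CPM, and layer 6 corticothalamic nuclei were lowest with 121 ± 87.1 CPM. The order of astrocytes, near-projecting, layer 2/3 and VIP nuclei, all between 1052 and 1144 CPM on average, was not the same in all libraries.

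**Figure D1:**
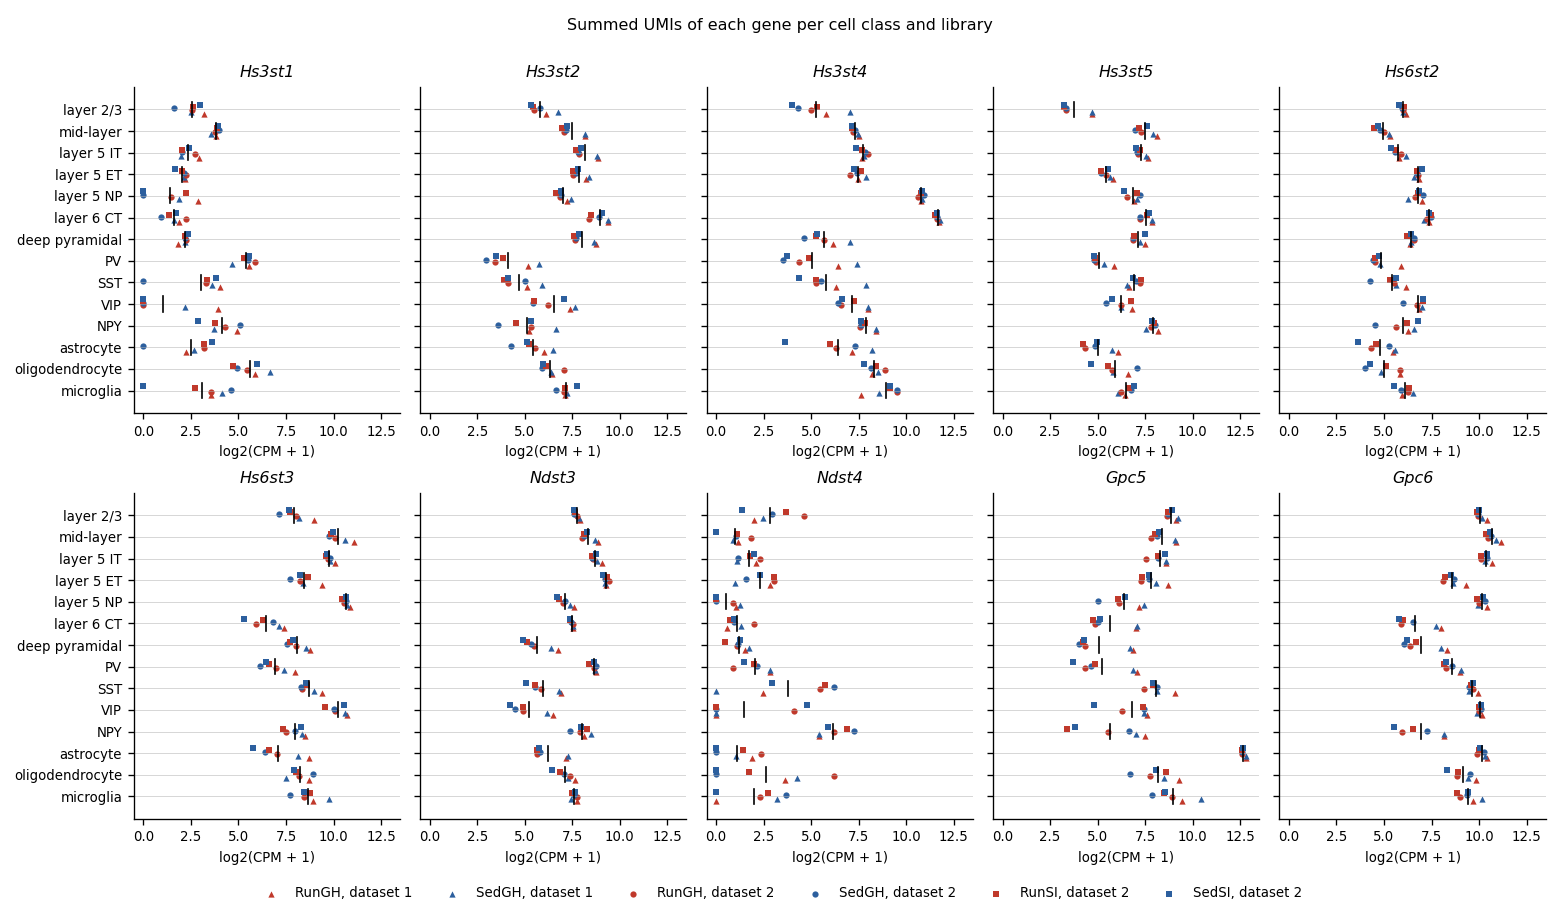
Level of each of the 10 genes as log2(CPM + 1) of UMIs summed per cell class (rows) and library (points, by condition and dataset). Hs3st4 stands out in layer 6 corticothalamic and near-projecting nuclei and Gpc5 in astrocytes, at a mean of 6528 CPM, while Ndst4 reaches at most 153 CPM, in NPY nuclei.

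Inhibitory and pyramidal nuclei were compared in the 6 libraries to ask which of the genes separate the main neuronal classes. Of the 10 genes, 9 differed past an adjusted p of 0.05 in edgeR's quasi-likelihood test, 2 higher and 7 lower in inhibitory nuclei, where 53.4% of 15829 genes tested were called. Ndst4 was higher by 2.06 ± 0.36 (SE, n = 6 libraries, adjusted p = 7.24e-05) on the log2 scale, or by 2.74 without a pyramidal cluster of 1 library described below and 2.93 without RunGH of dataset 2, and Hs3st1 by 1.86 ± 0.10 (SE, n = 6 libraries, adjusted p = 7.73e-12). Hs3st4 differed by -2.25 ± 0.07 and Hs3st2 by -2.24 ± 0.05. Smaller differences were measured for Gpc5 (-1.01 ± 0.08), Gpc6 (-0.89 ± 0.05), Hs6st2 (-0.66 ± 0.10), Ndst3 (-0.59 ± 0.05) and Hs6st3 (-0.56 ± 0.07). Shares lay above microglia in 6 of 6 libraries for Ndst4 and Hs3st1 in inhibitory and for Hs3st4, Hs3st2 and Ndst3 in pyramidal nuclei. In pyramidal nuclei they did so in 5 for Gpc6 and Hs6st3, 4 for Hs6st2 and 1 for Gpc5. Gpc5 was above in 0 in inhibitory nuclei, so it is read as background in both classes. Layer 2/3 nuclei, which are pyramidal, lay above for Gpc5 in 5 of 6 libraries. Microglia had fewer UMIs than pyramidal nuclei (median 3847 against 6816 in SedGH of dataset 1). The shares do not test whether the difference of Gpc5 is background. Hs3st5 had a difference of -0.16 ± 0.12 (SE, n = 6 libraries, adjusted p = 0.253), which did not pass. Of the 39 other heparan sulfate genes, 33 were tested and 21 passed, 10 higher and 11 lower. The highest were Hpse, the enzyme that cleaves heparan sulfate (log2 difference 4.19), Hs3st3a1 (2.33) and Notum (1.30). The lowest were Sulf1, which removes 6-O-sulfate outside the cell (-2.43), the chain polymerase Ext1 (-1.68) and Extl1 (-1.53).

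Within pyramidal nuclei, layer 6 corticothalamic and layer 2/3 nuclei differed in all 10 genes, 4 higher and 6 lower in layer 6, against 42.4% of 14279 genes tested. The 4 were sulfotransferases that act late on the chain, but Hs6st3 and Hs3st1, which do so too, were lower. Hs3st4 was 6.28 ± 0.28 (SE, n = 6 libraries, adjusted p = 3.53e-12) higher on the log2 scale, Hs3st5 3.74 ± 0.16, Hs3st2 3.11 ± 0.11 and Hs6st2 1.34 ± 0.08. Layer 2/3 Hs3st4 was read above as background, so its difference is one from background, and it was 8.47 with the background profile subtracted. In layer 2/3, shares lay above microglia in 0 of 6 libraries for Hs3st5, 1 for Hs3st2 and 2 for Hs6st2. Their layer 2/3 levels are thus read as near background too. Lower in layer 6 were both glypicans, Gpc6 by -3.37 ± 0.19 (SE, n = 6 libraries, adjusted p = 8.5e-11) and Gpc5 by -3.12 ± 0.21, and Ndst4 (-2.71 ± 0.25), Hs6st3 (-1.51 ± 0.16), Hs3st1 (-1.22 ± 0.22) and Ndst3 (-0.27 ± 0.06). The shares of the 4 genes that were higher lay above microglia in 6 of 6 libraries in layer 6. Of the genes that were lower, none did so in layer 2/3 in all libraries. Gpc5, Gpc6, Ndst3 and Ndst4 lay above in 5 of 6, Hs3st1 in 2 and Hs6st3 in 1, so Hs3st1 and Hs6st3 are read as background in both classes. The median log2 difference was -0.75 for the 10 genes and -0.03 for all genes tested. Of 28 other heparan sulfate genes tested, 14 passed, 6 higher and 8 lower. Sulf1 (log2 difference 3.41), Sulf2 (3.31) and Ndst1 (1.99) were highest, and the core proteins Gpc3 (-3.65), Gpc4 (-3.36) and Sdc3 (-1.19) lowest.

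Layer 5 near-projecting nuclei shared part of this pattern when set against the same layer 2/3 nuclei. Here 9 of 10 genes passed, 5 higher and 4 lower, against 41.3% of 12544 genes tested, and Gpc6 was not called (-0.03 ± 0.08 (SE, n = 6 libraries, adjusted p = 0.763)). Hs3st4 was higher by 5.33 ± 0.24 (SE, n = 6 libraries, adjusted p = 1.57e-17), Hs3st5 by 2.93 ± 0.17 and Hs3st2 by 1.06 ± 0.10 on the log2 scale. Hs6st3 was higher by 2.58 ± 0.12 in near-projecting nuclei, whereas in layer 6 corticothalamic nuclei it was lower than in layer 2/3, and Hs6st2 was higher by 0.67 ± 0.10. Ndst4 (-4.17 ± 0.51), Gpc5 (-2.45 ± 0.12), Hs3st1 (-1.03 ± 0.37) and Ndst3 (-0.72 ± 0.09) were lower. Near-projecting shares lay above microglia in 6 of 6 libraries for Hs3st4, Hs6st2 and Hs6st3, in 5 for Hs3st5 and in 2 for Hs3st2. The call of Hs3st1 was lost in 4 alternative analyses, among them DESeq2 (adjusted p = 0.0677). Both comparisons use the same layer 2/3 sums, so they are not independent and share the limit of background in layer 2/3. Of 26 other heparan sulfate genes tested, 16 passed, 8 in each direction, with Sulf2 (3.66), Ndst1 (1.44) and Papss1 (0.97), which makes the sulfate donor, highest, and Gpc3 (-3.35), Gpc4 (-1.91) and Sdc3 (-0.65) lowest.

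PV and SST interneurons were compared as a pair of major interneuron classes of the cortex, fast-spiking cells and cells that contact dendrites. Of the 10 genes, 9 differed, 2 higher and 7 lower in PV nuclei, against 25.1% of 10382 genes tested, and Hs3st2 was not called (-0.26 ± 0.19 (SE, n = 6 libraries, adjusted p = 0.361)). Ndst3 was higher in PV nuclei by 2.38 ± 0.13 (SE, n = 6 libraries, adjusted p = 7.37e-15) on the log2 scale and Hs3st1 by 1.88 ± 0.22 (SE, n = 6 libraries, adjusted p = 5.71e-08). Ndst4 was lower in PV nuclei by -2.65 ± 0.49 (SE, n = 6 libraries, adjusted p = 9.96e-05), but not in DESeq2 (adjusted p = 0.214). Without the cluster led by Nos1, an alternative added after the data were seen, Ndst4 had too few counts in these classes to be tested, and 8 of the 9 genes tested were called. Gpc5 (-2.39 ± 0.18), Hs3st5 (-1.74 ± 0.17), Hs6st3 (-1.73 ± 0.10), Gpc6 (-1.12 ± 0.10) and Hs6st2 (-0.66 ± 0.15) were lower too. Shares in PV nuclei lay above microglia in 6 of 6 libraries for Ndst3 and Hs3st1. Of the genes lower in PV, shares in SST nuclei lay above microglia in 5 of 6 libraries for Gpc6 and 4 for Hs6st3 and Ndst4. They did so in 3 for Hs3st5, 2 for Hs6st2, 1 for Gpc5 and 0 for Hs3st4. Hs6st2, Gpc5 and Hs3st4 are read as background in both classes, which does not test whether their differences are background. The calls of Gpc5 and Hs6st2 were kept with the background profile subtracted. The difference of Hs3st4 was small (-0.40 ± 0.14 (SE, n = 6 libraries, adjusted p = 0.0332)) and lost its call in 10 alternative analyses, among them DESeq2 (adjusted p = 0.165). Of 27 other heparan sulfate genes tested, 9 passed. Gpc4 (2.00) and Extl3 (0.45) were higher in PV nuclei, and Hpse (-5.91), Gpc3 (-2.71) and the syndecan Sdc2 (-1.02) were the lowest of 7.

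Astrocytes differed from pyramidal nuclei in 8 of the 10 genes, 1 higher and 7 lower, against 52.5% of 15725 genes tested. Gpc5 was higher in astrocytes by 4.30 ± 0.20 (SE, n = 6 libraries, adjusted p = 8.44e-15) on the log2 scale. Hs3st4 (-2.87 ± 0.31), Hs3st2 (-2.41 ± 0.18), Hs6st3 (-2.17 ± 0.25), Ndst3 (-2.11 ± 0.24), Hs3st5 (-1.87 ± 0.20), Ndst4 (-1.82 ± 0.45) and Hs6st2 (-1.55 ± 0.21) were lower. Gpc6 (0.05 ± 0.16 (SE, n = 6 libraries, adjusted p = 0.807)) and Hs3st1 (-0.31 ± 0.32 (SE, n = 6 libraries, adjusted p = 0.44)) were not called. The call of Ndst4 was lost without RunGH of dataset 2 (-0.87, adjusted p = 0.211), without the pyramidal cluster described below (-0.93, adjusted p = 0.0839), with a minimum of 1000 genes (-0.52) and with log-normalized values for clustering (-0.32). Astrocytes carried other enzymes of the 3-O-sulfation step, since Hs3st3a1 (7.31) and Hs3st3b1 (6.40), with the syndecan Sdc4 (6.30), were the highest of 11 other heparan sulfate genes that were higher, while Sulf1 (-2.16), Extl1 (-2.16) and Sulf2 (-1.82) were the lowest of 10 that were lower, of 34 tested.

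Oligodendrocyte precursors were set against astrocytes with 8 of the 10 genes past the filter on low counts (Hs3st1 and Ndst4 were not), and 5 were called, 4 higher and 1 lower, against 33% of 7272 genes tested. Gpc5 was lower in precursors by -1.20 ± 0.21 (SE, n = 6 libraries, adjusted p = 5.94e-06) on the log2 scale. Hs3st5 (1.20 ± 0.24 (SE, n = 6 libraries, adjusted p = 5.07e-05)), Hs6st2 (1.04 ± 0.27), Hs3st4 (0.78 ± 0.23) and Hs6st3 (0.77 ± 0.23) were higher. The call of Hs3st4 was lost in DESeq2 (adjusted p = 0.113), without RunGH (0.46, adjusted p = 0.191) or RunSI (0.47, adjusted p = 0.115) of dataset 2 and with marked doublets removed (0.17), and its direction turned with log-normalized values for clustering (-0.16), and Hs3st4 in astrocytes was read above as background. The call of Hs6st3 was lost without SedGH (0.68, adjusted p = 0.0596) or RunSI (0.39, adjusted p = 0.191) of dataset 2 and with log-normalized values (0.27), and that of Hs3st5 with log-normalized values (0.42, adjusted p = 0.0927). Shares of the 4 genes in precursors lay above microglia in 4 of 6 libraries for Hs3st5, 2 for Hs6st2 and Hs3st4 and 0 for Hs6st3. Gpc6 (-0.47 ± 0.19), Hs3st2 (0.50 ± 0.22) and Ndst3 (0.48 ± 0.22) did not pass. Of 21 other heparan sulfate genes tested 12 passed, with Col18a1, the core protein of a basement membrane proteoglycan (6.00), Sulf2 (3.12) and Sulf1 (2.52) highest, and Sdc4 (-6.14), Hs3st3a1 (-5.63) and Papss2 (-2.83) lowest.

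**Figure D2:**
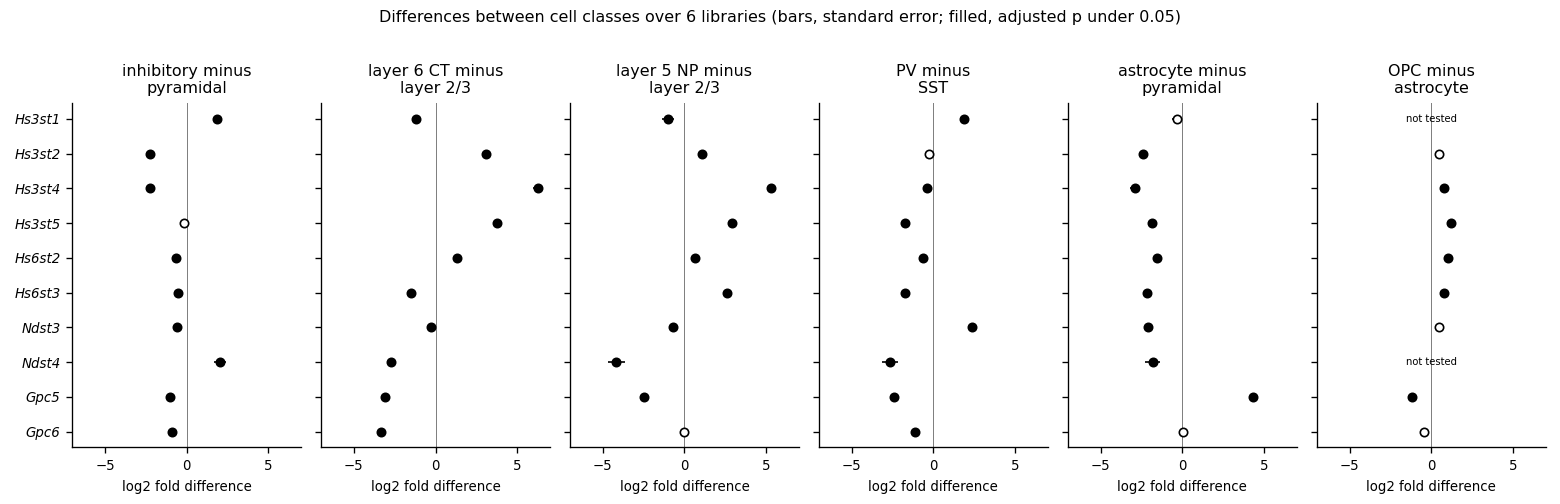
Log2 differences of the 10 genes (rows) between cell classes in 6 comparisons (panels) over 6 libraries, with standard errors as bars and filled points for an adjusted p under 0.05 in edgeR. Hs3st4 is 6.28 higher in layer 6 corticothalamic than in layer 2/3 nuclei, whose level is read as background, and Gpc5 4.30 higher in astrocytes than in pyramidal nuclei.

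The balance within pairs of related genes was compared as the share of 1 gene in the UMIs of both, which sets the classes against each other but not the genes. Gpc5 made up 85.1 ± 1.39% of Gpc5 plus Gpc6 UMIs in astrocytes and 23.3 ± 2.47% in pyramidal nuclei (SD, n = 6), higher in 6 of 6 libraries by 61.9 percentage points on average (exact 2-sided sign-flip permutation test, p = 0.03125, the smallest that 6 pairs allow, and 0.0417 after Benjamini-Hochberg adjustment over 4 pairs). Hs3st2 made up 59.8 ± 11.8% of Hs3st2 plus Hs3st4 UMIs in layer 2/3 and 13.4 ± 2.78% in layer 6 corticothalamic nuclei (SD, n = 6), higher in 6 of 6 libraries (exact permutation p = 0.03125, adjusted 0.0417). The Hs3st4 of layer 2/3 was read above as background, and the part of free RNA in that share was not tested. Ndst3 made up 88.2 ± 3.72% of Ndst3 plus Ndst4 UMIs in inhibitory and 97.6 ± 3.31% in pyramidal nuclei (SD, n = 6), lower in 6 of 6 libraries with a mean difference of -9.42 percentage points (exact permutation p = 0.03125, adjusted 0.0417). With heparan sulfate genes allowed into the clustering all 3 calls were lost. The differences hardly moved for Gpc5 (62.0 against 61.9 points) and Hs3st2 (47.0 against 46.4, exact permutation, adjusted p = 0.0625 for both). That of Ndst3 shrank to -5.17 (exact permutation, adjusted p = 0.09375). Each adjusted p depends on all 4 pairs. Hs6st2 made up 11.1 ± 2.55% of Hs6st2 plus Hs6st3 UMIs in inhibitory and 12.5 ± 2.46% in pyramidal nuclei (SD, n = 6), a difference that was not past the spread between libraries (exact permutation p = 0.3125, higher in 2 of 6 libraries).

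**Figure D3:**
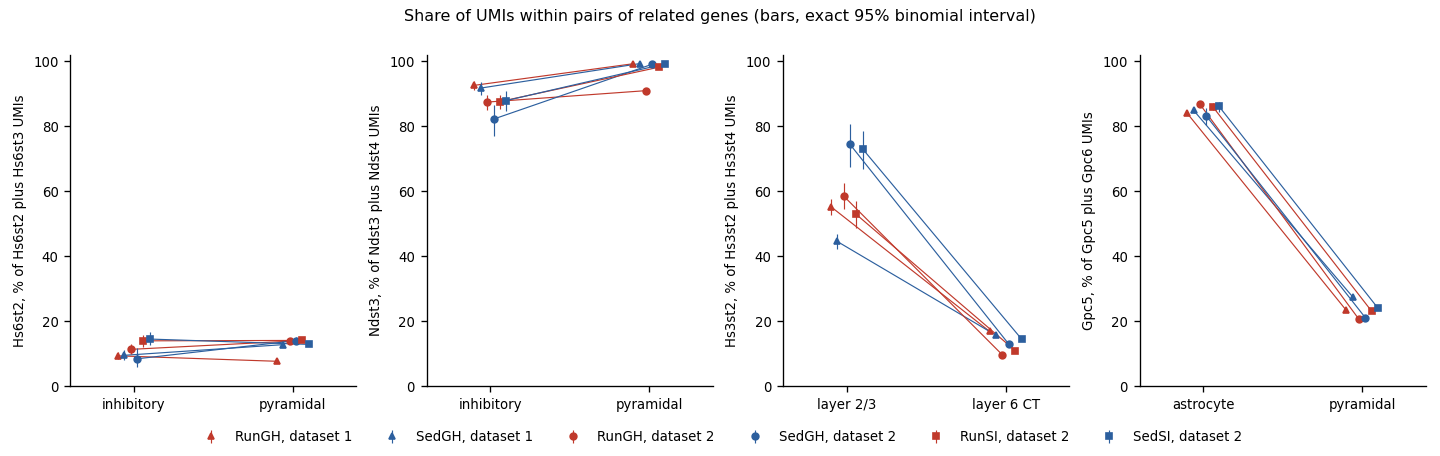
Share of UMIs, in percent, of the gene named on each axis within a pair of related genes, per cell class and library, with exact 95% binomial intervals that cover counting error only. Gpc5 holds 85.1% of the pair in astrocytes and 23.3% in pyramidal nuclei on average, and the Hs6st2 shares of inhibitory and pyramidal nuclei overlap.

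Across the 14 classes, the genes whose mean levels followed those of a member most closely among 9653 genes were found by Pearson's r of log2(CPM + 1), as a description over 14 points that share libraries and depth. Hs3st4 was most like Foxp2 (r = 0.92), itself one of the markers used to name layer 6 corticothalamic nuclei, and Pcp4 (r = 0.91). Gpc5 was most like Gm20713 (r = 0.99) and Hs3st2 most like Gm36736 (r = 0.95), and both lie over the member on the other strand. Ndst4 was most like Pip5k1b (r = 0.91), which was also highest in NPY and SST nuclei. Hs3st1 was most like Xrcc6 (r = 0.87), Hs6st3 like Cpne4 (r = 0.86) and Hs6st2 like Susd1 (r = 0.86). For Hs3st5 (Slc17a5, r = 0.74), Ndst3 (Dnah5, r = 0.74) and Gpc6 (Kcnh5, r = 0.75) no gene came closer. Among the members themselves, Hs6st3 and Gpc6 (r = 0.66) and Gpc5 and Gpc6 (r = 0.61) were most alike, and Hs3st1 and Hs6st2 least (r = -0.74).

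The maternal environment was tested over all 6 libraries, Run against Sed, with dataset and housing as terms. None of 145 tests of the 10 genes in 16 classes (the 14, all pyramidal and all inhibitory nuclei) passed an adjusted p of 0.05 in edgeR, where 0.0469% of tests of all genes did, and DESeq2 called 0 as well. At an unadjusted p under 0.05 there were 20, or 13.8%, against 6.71% of tests of all genes. The classes share nuclei with the pyramidal and inhibitory sums, and the 1 library per condition and dataset leaves 2 residual degrees of freedom. The lowest adjusted p was that of Gpc6 in microglia (log2 difference -0.53 ± 0.15, adjusted p = 0.124). There Gpc6 was 821 CPM in RunGH and 1156 in SedGH of dataset 1, 516 in RunGH and 647 in SedGH of dataset 2, and 459 in RunSI and 686 in SedSI, so Run lay below Sed in each of the 3 pairs, but the range of the 3 Run values overlapped that of the 3 Sed values. Microglia serve as the reference for background here. Free RNA of Gpc6 went the other way in all 3 pairs. It was 1070 and 956 CPM in RunGH and SedGH of dataset 1. In dataset 2 it was 426, 192, 454 and 312 CPM in RunGH, SedGH, RunSI and SedSI. The part of background in the Gpc6 level of microglia was not tested. SedGH of dataset 1 had 23 microglia. Of 362 tests of the other heparan sulfate genes 0 passed, and 35 had an unadjusted p under 0.05.

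Hs3st2 had a lower fitted level in Run than in Sed mice in 15 of 16 classes, with none called, but it was lower in all 3 pairs of libraries in only 4 of the 14 named classes and higher in all 3 in 1. In pyramidal nuclei it was 274 and 349 CPM in RunGH and SedGH of dataset 1, 172 and 186 CPM in RunGH and SedGH of dataset 2, and 173 and 204 CPM in RunSI and SedSI. The log2 ratio of Run over Sed was -0.35, -0.11 and -0.23 in these pairs, and the fitted difference -0.28 ± 0.08 (adjusted p = 0.65). In layer 6 corticothalamic nuclei Hs3st2 was 674 and 656 CPM in RunGH and SedGH of dataset 1, 335 and 469 CPM in RunGH and SedGH of dataset 2, and 357 and 537 CPM in RunSI and SedSI. The pairs of dataset 2 had log2 ratios of -0.48 (exact 95% interval -0.63 to -0.34, counting error only) and -0.59 (-0.70 to -0.48), and that of dataset 1 had 0.04 (-0.03 to 0.11).

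With dataset 2 alone, which has 4 libraries and 1 residual degree of freedom, 18 tests of the 10 genes were called for the maternal environment against 5.59% of tests of all genes. They included Hs3st2 in layer 6 corticothalamic nuclei (log2 difference -0.62 ± 0.09, adjusted p = 4.63e-09), Gpc5 in layer 5 intratelencephalic nuclei (-0.60 ± 0.09) and Gpc6 in layer 5 extratelencephalic nuclei (-0.56 ± 0.10), all lower in Run mice, and Hs6st3 higher in Run layer 2/3 nuclei (0.37 ± 0.11), where Hs6st3 is read as background and free RNA of Hs6st3 was higher in Run in both pairs (values below). Gpc5 was called lower in Run in 4 classes and Gpc6 in 5, of which pyramidal nuclei hold the others. Shares of Gpc6 in layer 5 extratelencephalic nuclei lay above microglia in 0 of 6 libraries. In RunGH of dataset 2 these nuclei had a median of 5072 UMIs, microglia 3042 and background droplets 262. The part of background in this Gpc6 level was not tested. Shares of Gpc5 in layer 5 intratelencephalic nuclei lay above microglia in 3 of 6. The lowest Hs6st3 level of layer 2/3 nuclei over the 6 libraries was 138 CPM. The part of free RNA in the Hs6st3 difference there was not tested. Each library of this set had no replicate of its condition.

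**Figure D4:**
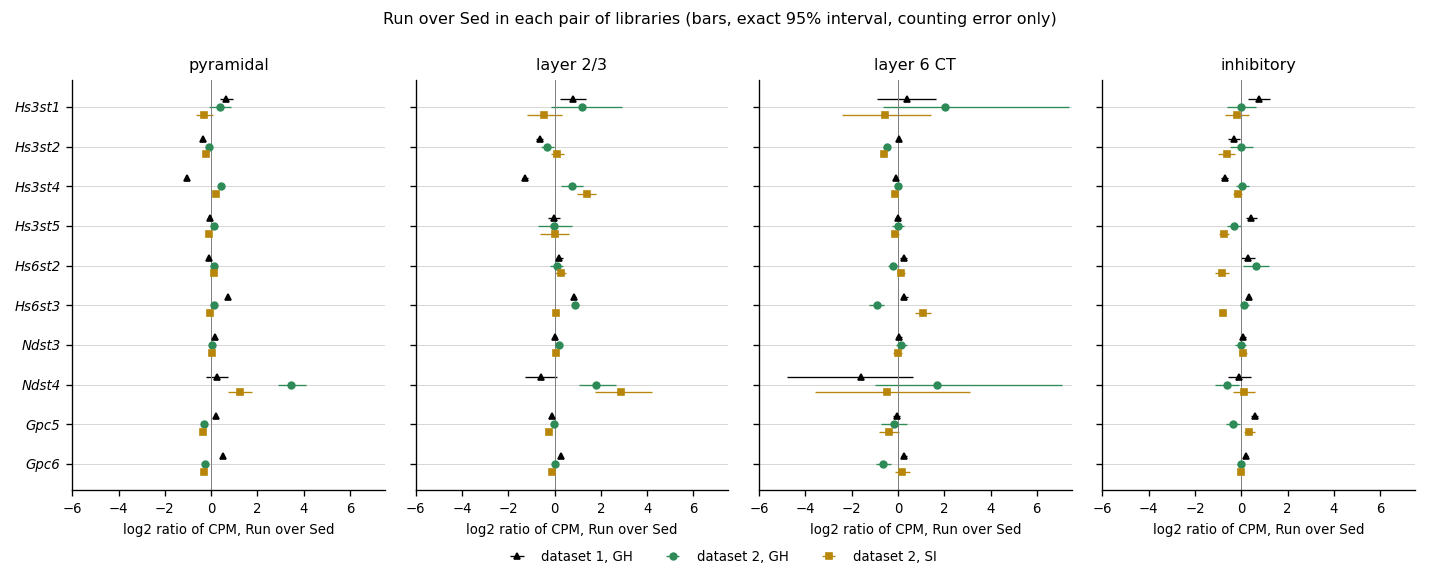
Log2 ratio of CPM, Run over Sed, for each gene (rows) in selected cell classes (panels), in the 3 pairs of libraries (dataset 1 group housed, dataset 2 group housed and dataset 2 isolated), with exact 95% intervals that cover counting error only. Hs3st4 in pyramidal nuclei is at -1.03 in dataset 1 and 0.40 and 0.19 in dataset 2, and Gpc6 at 0.52 in dataset 1 and -0.26 and -0.29 in dataset 2.

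Whether the difference between Run and Sed mice itself differed between the datasets was tested with an interaction term, which left 1 residual degree of freedom. The spread then comes mostly from all genes together. The p-values and SE of this test therefore do not measure a gene's own spread between libraries. Selection by rank in dataset 1 cannot be told apart from the other differences between the datasets. Of 149 tests of the 10 genes, 28 were called in edgeR, against 3.76% of tests of all genes, and DESeq2 called 7. In pyramidal nuclei 5 of 10 genes were called, against 12.8% of all genes. In layer 2/3 nuclei 2 of 10 were called against 6.04%, in layer 6 corticothalamic nuclei 1 of 10 against 4.23%, and in inhibitory nuclei 3 of 10 against 3.4%. Both glypicans and Hs6st3 had negative values in pyramidal nuclei. Gpc6 was 1283 and 894 CPM in RunGH and SedGH of dataset 1, 754 and 904 CPM in RunGH and SedGH of dataset 2, and 725 and 889 CPM in RunSI and SedSI, so Run was above Sed in dataset 1 and below it in both pairs of dataset 2. The difference between the datasets was -0.93 ± 0.12 for Gpc6 (SE, log2, adjusted p = 4.32e-13), -0.67 ± 0.13 for Gpc5 and -0.82 ± 0.12 for Hs6st3. DESeq2 called all 3 as well. Layer 6 corticothalamic nuclei, where Gpc6 and Hs6st3 are lowest, were a smaller share of pyramidal nuclei in Run than in Sed of dataset 1 and a larger one in both pairs of dataset 2 (given with Hs3st4 below). Within layer 5 intratelencephalic nuclei the difference between the datasets was -0.79 for Gpc6, -0.61 for Gpc5 and -0.50 for Hs6st3, all called. Barcodes under 100 UMIs had 1070 and 956 CPM of Gpc6 in RunGH and SedGH of dataset 1, and 426, 192, 454 and 312 CPM in RunGH, SedGH, RunSI and SedSI of dataset 2. For Hs6st3 they had 684 and 498 CPM in dataset 1 and 276, 93.0, 282 and 190 CPM in dataset 2, so free RNA was higher in Run than in Sed libraries in all 3 pairs. With the background profile subtracted, 38 of 143 tests of the 10 genes were called, against 5.14% of tests of all genes.

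Hs3st4 went the other way in pyramidal nuclei, with 477 and 977 CPM in RunGH and SedGH of dataset 1, 694 and 525 CPM in RunGH and SedGH of dataset 2, and 650 and 569 CPM in RunSI and SedSI. The difference between the datasets was 1.20 ± 0.12 (SE, log2, adjusted p = 7.93e-21). Layer 6 corticothalamic nuclei, where the gene is highest, were 10.3% of pyramidal nuclei in RunGH and 24.0% in SedGH of dataset 1, and 17.6% in RunGH, 11.8% in SedGH, 15.2% in RunSI and 13.9% in SedSI of dataset 2, so their share was higher in the library of each pair with more Hs3st4. Within layer 6 corticothalamic nuclei the log2 ratio of Run over Sed was -0.09, 0.00 and -0.12 in the 3 pairs, and the interaction was not called there. In layer 2/3 nuclei, where Hs3st4 was 54.5 and 131 CPM in RunGH and SedGH of dataset 1, 31.3 and 18.8 CPM in RunGH and SedGH of dataset 2, and 38.2 and 14.6 CPM in RunSI and SedSI, the difference was 2.23 ± 0.24. The free RNA of Hs3st4 was 316 and 713 CPM in RunGH and SedGH of dataset 1 and 387, 141, 366 and 222 CPM in RunGH, SedGH, RunSI and SedSI of dataset 2, so it was higher in the same library of each pair. Its part in the pyramidal and layer 2/3 differences, and that of the layer 6 share, was not tested. The call in PV nuclei (2.03 ± 0.51) became -4.04 and that in deep pyramidal nuclei (1.19 ± 0.28) became -0.62 with the background profile subtracted, neither of them called.

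**Figure D5:**
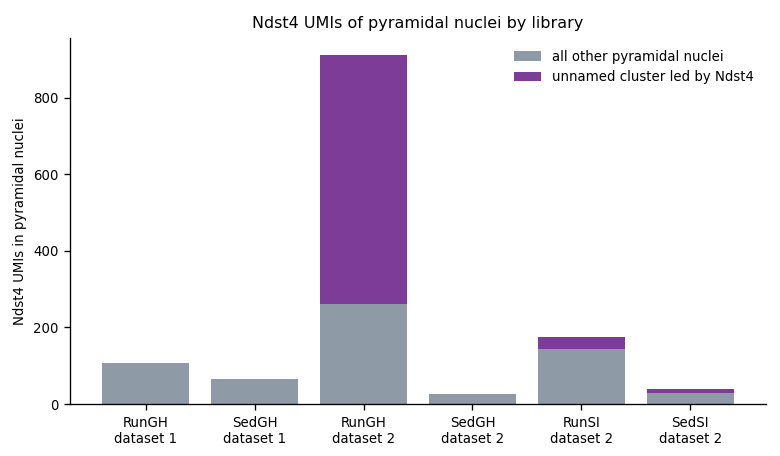
Ndst4 UMIs in pyramidal nuclei of each library, split into the cluster led by Ndst4 and all other pyramidal nuclei. In RunGH of dataset 2 the cluster of 97 nuclei holds 650 UMIs, and other pyramidal nuclei hold 261.

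Ndst4 in pyramidal nuclei was high in 1 library. It was 2.49 and 2.09 CPM in RunGH and SedGH of dataset 1, 28.4 and 2.58 CPM in RunGH and SedGH of dataset 2, and 5.38 and 2.26 CPM in RunSI and SedSI. A cluster of dataset 2 with Ndst4 as its leading gene, called pyramidal by its markers and given no finer name, held 103 nuclei, of which 97 were from RunGH, 5 from RunSI, 1 from SedSI and 0 from SedGH. These 97 were 1.24% of the pyramidal nuclei of the library and held 650 of its 911 pyramidal Ndst4 UMIs (71.4%), with 1534 CPM and a UMI in 90.7% of nuclei. The other pyramidal nuclei of that library had 8.26 CPM, against 1.64 to 4.40 CPM in the other 5 libraries. Layer 2/3 nuclei, which do not include the cluster, had 23.2 CPM in RunGH and 11.6 CPM in RunSI of dataset 2 against 1.60 to 6.68 CPM in the other libraries. Oligodendrocytes of RunGH of dataset 2 had 73.7 CPM (29 UMIs), against 0 to 18.1 CPM in the other 5 libraries, and barcodes under 100 UMIs had 13.9 CPM (14 UMIs) against 3.55 to 5.72 CPM. The part of free RNA in the levels of this library was not tested. The interaction was called for Ndst4 in pyramidal nuclei (2.01 ± 0.36, adjusted p = 1.06e-06), but without the cluster, an alternative added after the data were seen, it was 1.17 with an adjusted p of 0.0505. Within pyramidal nuclei its leading genes included Zfp536 and Adarb2, which are also among those of an inhibitory cluster in each dataset. A cluster almost wholly of 1 library may be that library and not a type, and whether its nuclei lay in the PL was not tested.

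Housing, isolated against grouped, was tested in the same fit, where only dataset 2 has isolated mice. None of 145 tests of the 10 genes passed, against 0.00534% of tests of all genes, and DESeq2 called 0. At an unadjusted p under 0.05 there were 13 (8.97%), against 2.12% of tests of all genes. The lowest unadjusted p was that of Gpc5 in NPY nuclei (log2 difference -2.39 ± 0.65, adjusted p = 1 in edgeR). Gpc5 had 3 UMIs there in RunSI and 2 in SedSI, against 15 in RunGH and 9 in SedGH of dataset 2. Its shares in NPY nuclei lay above microglia in 0 of 6 libraries and are read as background. Gpc5 had a higher fitted level in isolated mice in 14 of 16 classes. It was higher in both pairs of libraries in 5 of the 14 named classes and lower in both in 1. With dataset 2 alone 5 tests were called against 0.131% of tests of all genes. They were Ndst4 in pyramidal (-1.90 ± 0.21) and layer 2/3 nuclei (-1.14 ± 0.25), Gpc5 (0.52 ± 0.09) and Hs3st4 (-0.39 ± 0.10) in layer 5 intratelencephalic nuclei, and Hs3st5 in layer 6 corticothalamic nuclei (0.42 ± 0.11). In layer 5 intratelencephalic nuclei shares lay above microglia in 1 of 6 libraries for Hs3st4, which is read as background there, and in 3 for Gpc5. The levels of Ndst4 in these 4 libraries are given above, and in RunGH the cluster of 97 nuclei held 650 of 911 pyramidal UMIs. Over all 6 libraries the housing value of Ndst4 in pyramidal nuclei, not called, became 0.074 without RunGH of dataset 2. In layer 2/3 nuclei isolated mice had the lower level in both pairs, from 16 UMIs in SedGH and 7 in SedSI, and in pyramidal nuclei the pair of Sed libraries had 2.58 and 2.26 CPM. The comparisons of Run with Sed and of SI with GH share the libraries of dataset 2.

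Differences between the datasets, examined after the other results were seen, were wider than those between conditions. For the 10 genes 82 of 145 tests were called in edgeR, against 29.8% of tests of all genes. Gpc5 was lower in dataset 2 in 16 of 16 classes, 15 of them called, Hs3st2 was called lower in 13, Hs6st3 in 12, Gpc6 and Ndst3 in 9 each, and Hs3st4 was called lower in 9 and higher in 1 (microglia). In layer 6 corticothalamic nuclei the log2 difference was -2.28 ± 0.17 for Gpc5 and -1.86 ± 0.21 for Gpc6, where both genes had shares above microglia in 0 of 6 libraries and are read as background. Free RNA of Gpc5 was 509 and 524 CPM in RunGH and SedGH of dataset 1 and 92.6 to 279 CPM in dataset 2. In astrocytes, where Gpc5 is highest, it was -0.34 ± 0.13 (adjusted p = 0.0261). Ndst4 was the exception, called higher in 3 classes and lower in none. They were pyramidal (2.12 ± 0.67) and layer 2/3 nuclei (1.69 ± 0.58), where RunGH and RunSI of dataset 2 were high, and SST nuclei (4.07 ± 0.73), which include the cluster led by Nos1 in dataset 2 only. Without that cluster Ndst4 could not be tested in SST nuclei. Hs3st1 was called in no class. Depth, the free RNA given above, cohort, earlier testing and selection by rank all move with the dataset and cannot be told apart.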

How the data were processed

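PL nuclei of 6 libraries were profiled with the 10x Chromium 3′ V3 kit. The deposited files hold raw UMI counts per gene for all barcodes, which the authors made with Cell Ranger 6.0.0 on mm10 per the labels, introns included. They are unfiltered: empty droplets, doublets and free RNA are still in them. Per the file headers a different Cell Ranger release wrote the matrices. Barcodes with 500 to 4000 genes, at most 1% mitochondrial UMIs and a library's UMI minimum (99th percentile of its top barcodes over 10) were kept, because the limits alone left background droplets. Each dataset was clustered with scanpy 1.11.5 (Pearson residuals, theta 100, 3000 genes, 35 components, 20 neighbours, Leiden resolution 0.6) without heparan sulfate genes. Clusters were named from marker lists. Doublets marked by Scrublet (1.09 to 6.75% of nuclei) were kept and removed only in an alternative.

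Counts summed per class and library were fitted with edgeR 4.0.16 in R 4.3.3 (TMM, filterByExpr, quasi-likelihood F test, Benjamini-Hochberg over all genes tested, threshold 0.05), with dataset, housing and maternal environment as terms, or library and class for pairs of classes. DESeq2 1.42.0 was an alternative. The SE of edgeR values is the size of the log2 difference over the square root of F. With 1 or 2 residual degrees of freedom edgeR takes most of the spread from all genes together. The fits were tested on simulated data. CPM are counts scaled to a common total of UMIs per class and library. Intervals are exact (95%) and, like the limit of 3 counts for a count of 0, cover counting error only. All libraries pool 3 mice, so the spread between mice was not measured. The members, marker lists and other heparan sulfate genes were chosen with earlier results of these data known. Named genes were all members and, among other heparan sulfate genes, up to 3 per direction with the largest log2 change among those called. The dataset comparison and the removal of the clusters led by Ndst4 and Nos1 were added after seeing the data. No deposited comparison columns were used. The numbers 1 and 2 shared by RunGH and SedGH libraries mark the dataset (cohort), which stands as the block in the fits.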

Additional observations from a re-analysis of the deposited data

Results flagged for a closer look

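The difference between Run and Sed mice differed between the datasets, by the interaction term of the edgeR fit (1 residual degree of freedom), for 28 of 149 tests of the 10 genes in 16 classes. Values are log2 differences, dataset 2 minus dataset 1. In pyramidal nuclei they were 1.20 for Hs3st4, 2.01 for Ndst4, -0.67 for Gpc5, -0.93 for Gpc6 and -0.82 for Hs6st3. Without the cluster led by Ndst4, nearly all of it from 1 library, Ndst4 had 1.17 and was not called (adjusted p = 0.0505 in edgeR). In layer 2/3 nuclei Hs3st4 had 2.23 and Ndst4 2.65, and in mid-layer nuclei Gpc6 had -0.54 and Hs6st3 -0.50. Layer 5 intratelencephalic nuclei had -0.61 for Gpc5, -0.79 for Gpc6, -0.50 for Hs6st3 and -0.48 for Ndst3. Layer 5 extratelencephalic nuclei had -1.19 for Gpc5, -1.27 for Gpc6 and -0.68 for Hs6st3. Shares of Gpc5 and Gpc6 lay above microglia there in 0 of 6 libraries, and the part of background in their levels in that class was not tested. Layer 5 near-projecting nuclei had -0.85 for Gpc6 and -0.47 for Hs6st3. In layer 6 corticothalamic nuclei Hs3st2 had -0.68. Deep pyramidal nuclei had 1.19 for Hs3st4 and -0.71 for Hs3st5.

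In all inhibitory nuclei Hs3st5 had -1.11, Gpc5 -0.67 and Hs6st3 -0.79. In PV nuclei Hs3st4 had 2.03 and in SST nuclei Gpc5 had -1.37. Shares of Hs3st4 in PV and SST nuclei lay above microglia in 0 of 6 libraries, and those of Gpc5 in SST nuclei in 1. Without the cluster led by Nos1, Hs3st4 in SST nuclei went from 1.75, not called, to 2.28, called in edgeR. With the background profile subtracted the Hs3st4 values became -4.04 in PV and -0.62 in deep pyramidal nuclei, neither called. In microglia Gpc5 had 1.36 and Hs6st3 1.30, and the dataset 1 side rests on 23 microglia of SedGH and 65 of RunGH. Microglia serve as the reference for background, and whether these values are differences in background was not tested. With log-normalized values for clustering Gpc5 in microglia was -0.32 and not called. Hs6st3 and Gpc6 were called in the same direction, lower in dataset 2, in pyramidal, mid-layer and all 3 layer 5 classes. The report gives the levels of each library for Hs3st4 in pyramidal and layer 2/3 nuclei, Ndst4 and Gpc6 in pyramidal nuclei and Hs3st2 in layer 6 corticothalamic nuclei. The causes were not tested. No group has 4 samples, so no search for a sample far from its group was possible.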

How the results depend on the processing

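Of 1651 alternative values for single genes, 1483 kept their direction and side of the threshold, 82 lost the call, 58 gained one, 23 turned and 5 levels moved beyond their spread. Between classes, 773 of 826 kept both, 34 lost the call, 15 gained one and 4 turned. No replicate block (the dataset) changed no count of calls: 0 for the maternal environment and 0 for housing, as with the pairing by dataset. Members called for the maternal environment rose from 0 to 3 with no filter on low counts, 1 in group-housed libraries and 1 with marked doublets removed. They rose to 18 in dataset 2 alone, against 5.59% of tests of all genes. With 1 library left out they were 1 to 19, highest (19) without RunGH or without SedGH of dataset 1. There the dataset term takes up the library left in dataset 1, so those fits rest on dataset 2 as well. For housing they rose from 0 to 1 with no filter and 5 in dataset 2 alone, against 0.131% of tests of all genes. With 1 library left out they were 0 to 5, highest (5) without RunGH or without SedGH of dataset 1, which again rest on dataset 2. For the other settings the share of tests of all genes is not given here. Maternal calls by dataset went from 28 to 7 with DESeq2 and 17 with log-normalized values for clustering, where only 13 of the 16 classes could be named. Oligodendrocyte precursors against astrocytes went from 5 to 3 with log-normalized values and 4 to 6 with 1 library left out. With 1 library left out, the differences in share were 61.0 to 62.8 points for Gpc5, 43.3 to 49.9 for Hs3st2 and -10.6 to -7.92 for Ndst3, and 5 libraries cannot reach an exact p below 0.0625. With heparan sulfate genes allowed into the clustering they were 62.0, 47.0 and -5.17, with exact adjusted p of 0.0625, 0.0625 and 0.09375.

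Directions turned for the following log2 values. No replicate block gave -0.023 for Gpc5 in layer 5 intratelencephalic, -0.015 and -0.14 for Hs3st5 in layer 6 corticothalamic and pyramidal, and -0.13 and -0.21 for Hs6st3 in layer 5 extratelencephalic nuclei and microglia, all for housing. Log-normalized values gave -0.32 for Gpc5 by dataset in microglia, -0.045 for maternal Gpc5 in oligodendrocytes, -0.079 for maternal Hs6st3 in astrocytes and -0.16 for Hs3st4 between precursors and astrocytes. A minimum of 1000 genes gave -0.35 for maternal Hs6st3 in astrocytes, and no filter -0.014 for Gpc6 between astrocytes and pyramidal nuclei. Background subtraction gave -4.04 and -0.62 for Hs3st4 by dataset in PV and deep pyramidal nuclei. Maternal Hs3st4 became 0.22 in SST nuclei and 0.14 in astrocytes in dataset 2 alone, and ran from -1.24 to 0.24 and from -1.04 to 0.15 with 1 library left out, above 0 without RunGH or SedGH of dataset 1. The other ranges with 1 library left out were -0.96 to 0.061 for Hs3st2 in oligodendrocytes and -2.55 to 0.074 for Ndst4 in pyramidal nuclei, both for housing and above 0 without RunGH of dataset 2, -0.44 to 0.23 for Hs3st1 between astrocytes and pyramidal nuclei (above 0 without RunGH of dataset 1), and -0.093 to 0.0011 for Gpc6 between near-projecting and layer 2/3 nuclei (above 0 without SedGH of dataset 1). The causes were not tested. The shallowest library, SedGH of dataset 2, limits low genes such as Ndst4 and Hs3st1.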
